A study of Rattus norvegicus with 6 samples.

Results

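The genes described here are 4 matrix metalloproteinases, Mmp2, Mmp3, Mmp9 and Mmp14, and 3 of their tissue inhibitors, Timp1, Timp2 and Timp3. They were chosen by name, and all 7 were among the 32883 genes of the deposited count matrices. The matrices come from single-cell RNA sequencing of pancreatic cells from 6 male Wistar rats, an outbred strain, with 1 library per rat and 2 rats per group. The young rats were 2 months old and on a normal diet, the old rats were 20 months old after 18 months on that diet, and the HFHF-old rats were 20 months old after 18 months on a high-fat high-fructose diet. The labels name no engineered allele. The cells were released with collagenase P and taken from a density gradient for islets, so the classes hold the cells that survived this route and their numbers are not those of the organ. The labels do not say whether rats of a group shared a cage, litter or preparation day, so the p-values measure the spread between these libraries.

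Matrix metalloproteinases are zinc-dependent enzymes that cut collagen and other proteins of the extracellular matrix. They are made as inactive precursors, and MMP14, which sits in the cell membrane, is known for activating the MMP2 precursor in a complex with TIMP2. MMP2 and MMP9 are gelatinases, and MMP3 is a stromelysin with a broad range of substrates. The TIMP proteins bind the active site of these enzymes, and TIMP3 differs from the others in staying attached to the matrix. In the pancreas, fibroblasts and stellate cells are known sources of these genes, and neutrophils are known for storing MMP9 in granules.

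After the filters, 75201 of 78024 barcodes remained, and the deposited libraries held between 77387928 and 166875258 UMIs (unique molecular identifiers, each counting 1 captured transcript). Pairs of libraries shared 20 to 64 cell barcodes, which was at most 0.623% of the smaller library. The cells formed 39 clusters, which were named from marker genes with the 7 genes held out of the clustering. Fibroblasts numbered 11810, macrophages 13780, epithelial cells (acinar, endocrine and ductal) 12766, endothelial cells 2148 and mural cells, the smooth muscle cells and pericytes of vessels, 890 in the 5 rats with at least 10 of them. All 9 fibroblast, 9 mural, 8 endothelial and 9 macrophage markers in the files had a log2 fold over all other cells above 1 in their class.

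The clusters that matched the neutrophil list, 3948 cells, also held genes that go against that name. Of the 9 neutrophil markers in the files, 8 had a log2 fold above 1 there, all but Cxcr1. S100a9, which led them, stood at 288 CPM (counts of UMIs per 1000000 UMIs). The neutrophil receptor Cxcr1 was at 0, as in macrophages and dendritic cells, and Cxcr2 at 2.03 CPM. The macrophage genes C1qa and Csf1r stood at 1986 and 707 and the antigen presentation gene Cd74 at 10026. These clusters are therefore called S100a9 myeloid cells below.

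Some libraries stood apart from the others. HFHF-old replicate 1 had 96.7% of its macrophages, 74% of its fibroblasts and 98.9% of its S100a9 myeloid cells in clusters 11, 15 and 19, which held few cells of other rats. HFHF-old replicate 2 had only 25 macrophages, in which the haemoglobin and other erythroid genes summed to 120724 CPM against at most 495 in the macrophages of other rats, and its 2 mural cells were left out. Old replicate 2, labelled as pancreas of a male, was the only library with UMIs of Prl2a1 (676), Prl7b1 (754), Ctsj (11331) and Ctsq (799), genes known from the rodent placenta, and 3 unnamed clusters consisted of its cells alone. Young replicate 2 supplied 2546 of the 2558 cells of unnamed cluster 10, which were 24.8% of its cells. It gave 304 fibroblasts against 4457 in young replicate 1, and 27.4% of its Mmp2 UMIs fell in unnamed cells. All levels below are CPM of a gene, taken over the UMIs of a class in a rat. Where 6 values follow each other, the first pair is that of the young rats, the next that of the old and the last that of the HFHF-old rats, with replicate 1 before replicate 2. Levels are compared between classes and rats within a gene, and since the classes were clustered from the same cells, differences between classes are given as a description without a test.

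Mmp2, a gelatinase gene, was a fibroblast transcript in every rat. Its level in fibroblasts was 898, 762, 531, 401, 752 and 413 CPM, and the lowest of these was above the highest endothelial level, 228. Fibroblasts held 89.4% of all 82629 Mmp2 UMIs. A UMI of Mmp2 was found in 57.0 to 96.7% of the fibroblasts of a rat (median 2986.5 to 13629 UMIs per cell) and in 0.562 to 10.3% of its B cells (median 3285 to 12448 UMIs), antibody-lineage cells that are not known as a main source of the gene. Among the other classes, the endothelial, mural, epithelial, macrophage and S100a9 myeloid ranges overlapped each neighbour in the order of their medians.

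The Mmp2 found outside fibroblasts was set beside the RNA of fibroblast markers. The 9 genes of the fibroblast list summed to 14957 to 41494 CPM in fibroblasts and to 660 to 7425 in endothelial cells, 969 to 2606 in mural cells, 159 to 1032 in epithelial cells and 96.4 to 933 in macrophages. Per 1000 UMIs of this list, fibroblasts held 18.4 to 27.7 Mmp2 UMIs, endothelial cells 21.4 to 43.9, epithelial cells 18.9 to 40.9 and NK cells 15.3 to 39.9. These ranges overlapped that of fibroblasts, as did those of mural cells (0 to 27.3) and macrophages (17.7 to 37.4 in 5 rats, and 286 in HFHF-old replicate 2 from 7 list UMIs). The range of S100a9 myeloid cells, 37.4 to 135 in 5 rats and 286 in HFHF-old replicate 2 from 14 list UMIs, lay above that of fibroblasts and that of mesothelial cells, 0 to 1.36, below it. The part of fibroblast RNA in the Mmp2 levels of the other classes was not tested.

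Within the endothelial class, Mmp2 and Mmp14 came mainly from cluster 36, led by Ccl21, Vwf and Mmrn1. In this cluster of 239 cells Mmp2 stood at 360, 312, 201, 206, 401 and 89.0 CPM and Mmp14 at 215, 183, 76.9, 114, 136 and 63.5. In the other endothelial clusters, 22 and 27, Mmp2 did not exceed 40.9 and Mmp14 did not exceed 6.05 in any rat. Cluster 36 also held the fibroblast list at 2033 to 17328 CPM against at most 708 in clusters 22 and 27. Its Mmp2 count per 1000 list UMIs was 16.5 to 43.8, a range that overlapped that of fibroblasts.

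Mmp14, the gene of the membrane-bound activator, was also highest in fibroblasts in every rat among the named classes. In fibroblasts it stood at 353, 386, 196, 203, 243 and 289 CPM, and no pair of groups overlapped. In the direction of Mmp14, 17.8% of genes separated for old against young. The share was 18% for HFHF-old against old and 17.2% for HFHF-old against young. The share of genes with all 3 groups apart is not given. Fibroblasts held 90.3% of its 31762 UMIs. By median, its next highest levels were in mesothelial cells, the lining of the organ's surface, and in ductal cells. The mesothelial range was 36.1 to 86.4 in the 4 rats with at least 10 such cells, and the ductal range 36.2 to 94.0 in 5 rats. Both ranges lay below that of fibroblasts and above the range of acinar cells, 1.14 to 22. The endothelial range, 16.8 to 79.9, and the mural range, 13.1 to 42.7, overlapped both. Per 1000 UMIs of the fibroblast list, ductal cells held 19.1 to 120 Mmp14 UMIs and fibroblasts 8.39 to 19.3, with the ductal value the higher in 5 of 5 rats. The source of the ductal Mmp14 was not tested.

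Mmp9, the second gelatinase gene, stood at 0.123 to 2.71 CPM in fibroblasts. The class with most of its 4083 UMIs was that of natural killer (NK) cells, with 85.7%, named from clusters in which 6 to 9 of 9 NK markers passed. HFHF-old replicate 2 supplied 2547 of the Mmp9 UMIs, and without it the NK share was 69.9%. In NK cells Mmp9 stood at 11.6, 29.9, 32.0, 44.5, 49.0 and 31.5 CPM. The range over rats did not overlap that of B cells, the next class by median, at 0.686 to 9.01, and Mmp9 was higher in NK than in B cells in 6 of 6 rats. A UMI of Mmp9 was found in 5.87 to 28.2% of the NK cells of a rat, and in 1.33 to 5.10% after thinning each cell to 1000 UMIs. The share was 0.662 to 2.97% in T cells (median 3023.5 to 8170 UMIs per cell) and 0 to 0.657% in epithelial cells (median 1227.5 to 5063 UMIs). NK cells were not among the classes whose tests are reported, so no test between their groups is given. Young replicate 1 was the lowest rat and HFHF-old replicate 1 the highest, and 85.6% of the NK cells of HFHF-old replicate 1 formed cluster 23 (59.1 CPM), in which no other rat had more than 39 cells.

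In S100a9 myeloid cells Mmp9 was at 0 and 0 in the young rats, 2.58 and 0.201 in the old rats and 7.83 and 21.7 CPM in the HFHF-old rats. In the same class the dissociation list, genes known to respond to tissue digestion, summed to 6634, 3724, 7703, 5940, 14424 and 8624 CPM, highest in the HFHF-old rats, and the neutrophil list to 5913 in HFHF-old replicate 2 against at most 540 in the others. Their part in the Mmp9 levels was not tested. Few cells carried the Mmp9 UMIs. The 14 UMIs of HFHF-old replicate 2 came from 1 cell, which was among 2 cells of that rat with more than 20 UMIs of the neutrophil list, and the 106 UMIs of HFHF-old replicate 1 came from 26 cells. Both young rats were at 0 of 4765445 UMIs in the class, where 3 UMIs would give 0.630 CPM over the group. The HFHF-old level over both rats was 13.4-fold that floor. This is a bound for counting error only and does not cover the spread between cells or rats. This bound was 5.14-fold without young replicate 1 and 34.5-fold without HFHF-old replicate 1. The old level has no bound without old replicate 1, which held 21 of the 22 UMIs. The edgeR quasi-likelihood test did not pass for HFHF-old against young (adjusted p = 0.288), whereas DESeq2 called it (adjusted p = 0.00572).

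Mmp3, the stromelysin gene, was almost not detected. In all 75201 cells 9 UMIs were counted, with 3, 1, 3, 2, 0 and 0 per rat in 8 cells, and 8 of them fell in epithelial cells and 1 in S100a9 myeloid cells. The 11810 fibroblasts held 0, which in HFHF-old replicate 1, the deepest of them, allows up to 0.0780 CPM (3 UMIs, counting error only). The gene did not pass the filter on low counts in any class and was not tested. Its 250 bases before the transcription start, taken from RefSeq with coordinates of GRCr8 (chr8:12925031-12925280, plus strand), are shown because Mmp3 is the textbook example of a metalloproteinase gene with an AP-1 site. Capitals mark the motifs searched on both strands, the AP-1 letters TGANTCA and the TATA letters TATAAA.
Mmp3: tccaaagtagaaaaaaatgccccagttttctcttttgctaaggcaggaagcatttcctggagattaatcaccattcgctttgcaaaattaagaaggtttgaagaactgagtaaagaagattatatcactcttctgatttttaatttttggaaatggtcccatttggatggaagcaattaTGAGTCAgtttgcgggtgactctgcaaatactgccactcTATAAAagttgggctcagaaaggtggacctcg
The AP-1 letters began 71 bases and the TATA letters 32 bases before the start. Of 33469 promoters of this length, 6.34% held the AP-1 letters and 12.9% the TATA letters. The files were made on Rnor 6.0, another build, and a match of letters is a description and not a binding site.

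**Figure D1:**
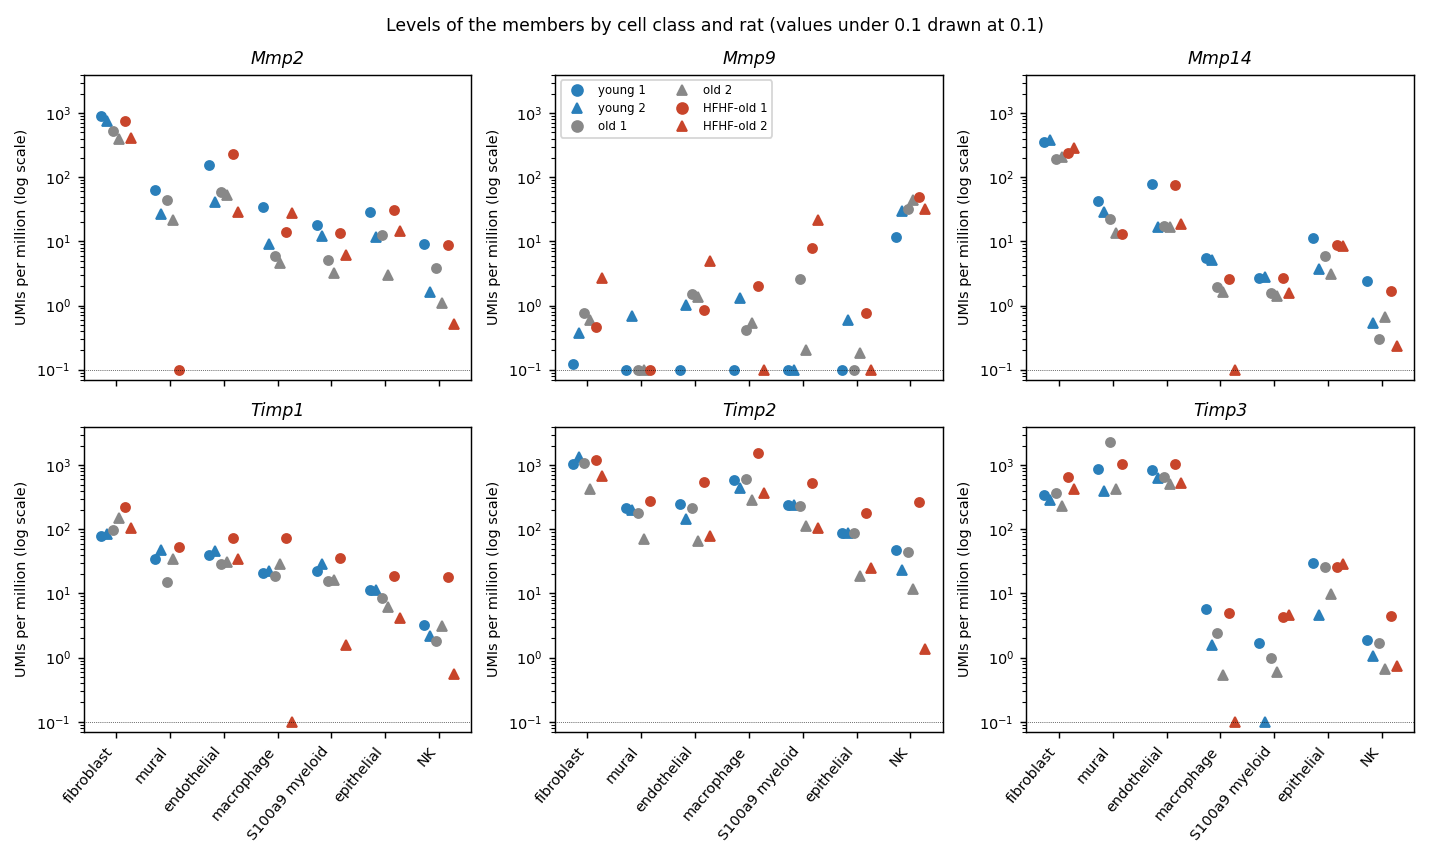
Levels of 6 of the genes in CPM (log scale, values under 0.1 drawn at 0.1) in 7 cell classes; each point is 1 rat, blue for young, grey for old and red for HFHF-old, with circles for replicate 1 and triangles for replicate 2. Mmp2 and Mmp14 were highest in fibroblasts in each rat, Mmp9 in NK cells, and Timp3 was between 235 and 2304 in fibroblast, mural and endothelial cells and at most 29.5 in the other classes shown.

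Timp1, an inhibitor gene known to respond to inflammatory signals, was highest in mesothelial cells, at 189 to 2485 CPM in 4 rats, and above fibroblasts in each of them. These cells were few, 117 in the 4 rats, so fibroblasts held 62.2% of the 23535 Timp1 UMIs and macrophages 13.5%, or 8.81% without HFHF-old replicate 1. By rat the fibroblast share ran from 15.4% in young replicate 2 to 90.5% in HFHF-old replicate 2. In young replicate 2, 36.3% of the Timp1 UMIs fell in unnamed cells. In fibroblasts Timp1 stood at 79.4, 85.7, 96.8, 152, 221 and 105 CPM. The young rats were the lowest, and old and HFHF-old rats overlapped. In macrophages the levels were 20.5, 22.2, 18.7, 28.6, 73.5 and 0, where the 0 came from the 25 macrophages of HFHF-old replicate 2 and allows up to 41.3. The high value was HFHF-old replicate 1, whose mesothelial level, 2485, was also the highest of its class.

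Timp2, the inhibitor gene whose product takes part in MMP2 activation, was shared between fibroblasts (48.3% of 223039 UMIs) and macrophages (31.6%). HFHF-old replicate 1 supplied 117545 of these UMIs, and without it the macrophage share was 20.8%. Fibroblasts held it at 1059, 1339, 1070, 429, 1201 and 684 CPM and macrophages at 595, 447, 605, 291, 1554 and 372. The fibroblast level was the higher in 5 of 6 rats, the exception being HFHF-old replicate 1, and the ranges of both classes overlapped. Old replicate 2 was the lowest rat in fibroblasts and macrophages and HFHF-old replicate 1 the highest in macrophages. The macrophage value of HFHF-old replicate 1 came from cluster 11, at 1563 with 2463 cells. Its 49 cells in cluster 1, where 3437 macrophages of young replicate 1 stood at 666, gave 1087, and its 34 cells in cluster 4 gave 437, beside 429 in young replicate 1 and 406 in old replicate 1.

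Timp3, the matrix-bound inhibitor gene, was highest in the cells of vessels and in fibroblasts. Mural cells held it at 859, 401, 2304, 422 and 1060 CPM without HFHF-old replicate 2, endothelial cells at 856, 624, 649, 515, 1062 and 535, and fibroblasts at 343, 286, 370, 235, 667 and 423. The ranges of these 3 classes overlapped, with endothelial cells above fibroblasts in 6 of 6 rats, and all 3 ranges lay above those of epithelial cells (4.68 to 29.5), macrophages (0 to 5.65) and S100a9 myeloid cells (0 to 4.66). The mural values rest on 22 cells in old replicate 1 and 13 in HFHF-old replicate 1. Among endothelial cells, cluster 27, led by Cyyr1 and Adgrl4 with the vessel gene Flt1 among its leading genes, held Timp3 at 715 to 2563 and cluster 22 at 280 to 689, higher in cluster 27 in 6 of 6 rats. Within the epithelial class, ductal cells held Timp3 at 89.3 to 239 in 5 rats.

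The 250 bases before the start of the 3 inhibitor genes are shown because these genes, unlike Mmp3, were read in several classes. They are from RefSeq with coordinates of GRCr8, at chrX:3771123-3771372 for Timp1, chr10:104089215-104089464 for Timp2 and chr7:19459559-19459808 for Timp3, all on the minus strand. Capitals mark the Sp1 letters GGGCGG or, where the match is on the other strand, CCGCCC.
Timp1: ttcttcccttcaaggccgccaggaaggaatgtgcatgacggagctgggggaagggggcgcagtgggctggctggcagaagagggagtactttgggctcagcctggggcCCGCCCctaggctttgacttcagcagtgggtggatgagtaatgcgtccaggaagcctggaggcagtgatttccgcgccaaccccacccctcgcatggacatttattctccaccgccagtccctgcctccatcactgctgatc
Timp2: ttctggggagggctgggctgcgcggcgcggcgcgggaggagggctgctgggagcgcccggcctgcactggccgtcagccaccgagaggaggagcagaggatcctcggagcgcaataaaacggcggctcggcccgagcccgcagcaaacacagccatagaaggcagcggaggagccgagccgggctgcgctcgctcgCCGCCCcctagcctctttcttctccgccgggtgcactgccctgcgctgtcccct
Timp3: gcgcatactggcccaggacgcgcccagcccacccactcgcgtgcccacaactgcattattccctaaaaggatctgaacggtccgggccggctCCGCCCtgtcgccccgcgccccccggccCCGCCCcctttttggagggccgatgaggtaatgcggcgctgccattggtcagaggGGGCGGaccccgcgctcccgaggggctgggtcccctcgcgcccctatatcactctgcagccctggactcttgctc
The Sp1 letters matched once in Timp1 and Timp2 and 3 times in Timp3, and 30.5% of the 33469 promoters held them. Neither the AP-1 letters TGANTCA nor the TATA letters TATAAA were in these 3 windows, and variant forms of either site were not searched. The promoters of Mmp2, Mmp9 and Mmp14 are not shown.

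**Figure D2:**
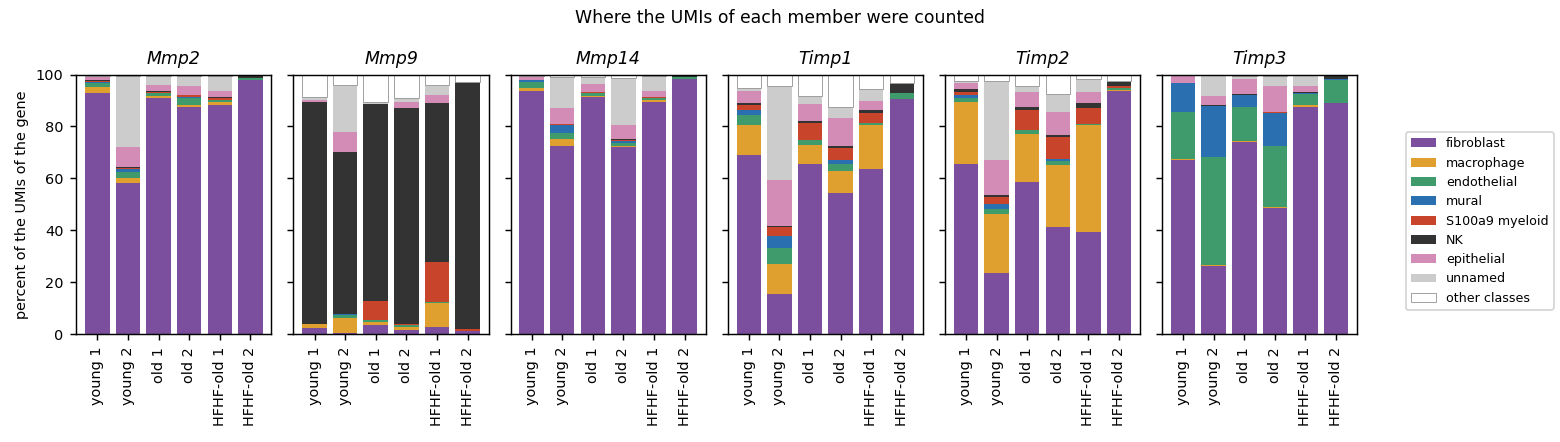
Percent of the UMIs of each gene (vertical axis) counted in each cell class, 1 bar per rat. Fibroblasts held 58.1 to 98% of Mmp2 and NK cells 61.2 to 95.2% of Mmp9, while Timp2 and Timp3 were divided between classes in proportions that differed between rats.

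The first question of the design is which genes differ with age, that is between old and young rats, and the next which differ with the diet, between HFHF-old and old rats. Each was tested with edgeR on UMIs summed per rat and class, and a call needed a Benjamini-Hochberg adjusted p under 0.05 within the class and a change of more than 1.5-fold. The 7 genes gave 32 tests per comparison over 6 classes, 96 in all. None was called, and 11 of 96 had an unadjusted p under 0.05, against 7.01% of the tests of all genes. DESeq2 on the same sums called 2, which were Mmp14 in fibroblasts with age and Mmp9 in S100a9 myeloid cells between HFHF-old and young rats, where it called 1.01% and 1.45% of all genes. With edgeR calls were rare among all genes too. The share of genes called was 0.029% in fibroblasts, 0.0168% in macrophages and 0.0276% in epithelial cells for old against young. It was 0.0145% in fibroblasts between HFHF-old and old rats. For HFHF-old against young it was 0.0145% in fibroblasts, 0.0168% in macrophages and 0.00895% in S100a9 myeloid cells. It was 0% in the other combinations of class and comparison. In simulated fibroblast sums, 57.5% of the 4-fold changes for HFHF-old against old were called, and in endothelial sums 37.5%, so changes of this size and smaller could be missed.

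With age, both fibroblast metalloproteinase genes were lower and Timp1 was higher in the old rats without overlap. Mmp2 averaged 830 ± 96.6 CPM in young and 466 ± 92.2 in old fibroblasts (mean ± SD, n = 2), a log2 fold change of -0.83 (SE 0.39, edgeR adjusted p = 0.812). Mmp14 averaged 370 ± 23.1 and 200 ± 5.49 (n = 2), a log2 fold change of -0.88 with an SE of 0.22. It did not pass in edgeR (adjusted p = 0.458) and passed in DESeq2 (adjusted p = 0.0145), and leaving out any 1 rat kept the edgeR value between -0.96 and -0.81. Timp1 averaged 82.5 ± 4.49 and 124 ± 39.1, a log2 fold change of 0.61 (SE 0.44, edgeR adjusted p = 0.925) that was 0.20 without old replicate 2. Timp2 and Timp3 overlapped between young and old rats, with log2 fold changes of -0.69 (SE 0.51) and -0.06 (SE 0.36). That of Timp2 was -0.20 without old replicate 2 and -1.46 without old replicate 1.

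Of the 5 genes tested in fibroblasts, Mmp2 and Mmp14 were thus lower in old than in young rats without overlap, and so were 17.8% of 13664 genes. Timp1 was higher without overlap, as were 19.6% of genes. The median log2 fold change of the 5 genes was -0.69 against 0.01 over all genes tested. The fibroblast markers themselves were lower in old rats, with the list at 34752 and 41494 CPM in the young and 23325 and 18041 in the old rats. Per 1000 UMIs of that list Mmp2 stood at 25.8, 18.4, 22.8, 22.2, 27.7 and 27.6, where young and old rats overlapped, and Mmp14 at 10.2, 9.30, 8.39, 11.3, 8.95 and 19.3, where they overlapped too. Genes known to respond to tissue dissociation, 11 in the files, summed to 12821, 7829, 18123, 16626, 18305 and 21874 CPM in fibroblasts, lowest in the young rats. The part of either list in the lower Mmp2 and Mmp14 levels was not tested.

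**Figure D3:**
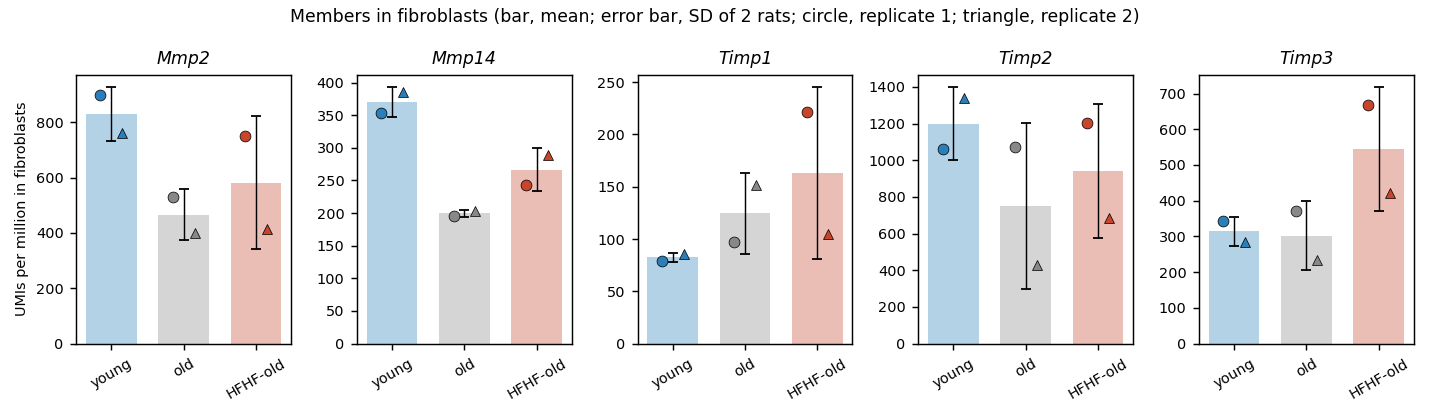
Levels of 5 of the genes in fibroblasts in CPM; bars are means and error bars the SD of 2 rats, circles replicate 1 and triangles replicate 2. For Mmp14 the 3 groups did not overlap, at 353 and 386 in young, 196 and 203 in old and 243 and 289 in HFHF-old rats. The share of all genes with this separation is not given. HFHF-old replicates differed widely for Mmp2, Timp1 and Timp3.

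With the diet, Timp3 and Mmp14 were higher in fibroblasts of HFHF-old than of old rats without overlap. Timp3 averaged 303 ± 96.1 in old and 545 ± 172 in HFHF-old fibroblasts (n = 2), a log2 fold change of 0.85 (SE 0.36, edgeR adjusted p = 0.683). It was 0.37 without HFHF-old replicate 1, most of whose fibroblasts formed cluster 15, and 0.59 without old replicate 2. Over all alternative settings it ranged from 0.10 to 1.22. Mmp14 averaged 266 ± 32.9 in HFHF-old rats, a log2 fold change of 0.38 over old rats (SE 0.22, edgeR adjusted p = 0.746). The dissociation genes summed to 18305 and 21874 CPM in HFHF-old against 18123 and 16626 in old fibroblasts, also without overlap. The fibroblast list overlapped, at 27144 and 14957 CPM in HFHF-old against 23325 and 18041 in old rats. Per 1000 UMIs of that list Mmp14 overlapped too, at 8.95 and 19.3 against 8.39 and 11.3. Timp3 did not, at 24.6 and 28.3 against 15.9 and 13.0. The part of either list was not tested. Higher levels without overlap were found for 18% of all genes, and none of the 5 was lower without overlap, as 19.7% of genes were. All 5 log2 fold changes were above 0, with a median of 0.38 against 0.01 over all genes, but without HFHF-old replicate 1 those of Mmp2, Timp1 and Timp2 were -0.30, -0.38 and -0.24. Without old replicate 2 that of Timp2 was -0.14.

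Against young rats, Timp1 and Timp3 stood higher and Mmp2 and Mmp14 lower in HFHF-old fibroblasts, each without overlap. The log2 fold changes were 0.99 for Timp1 (SE 0.44), 0.79 for Timp3 (SE 0.36), -0.51 for Mmp2 (SE 0.39) and -0.50 for Mmp14 (SE 0.22), and their edgeR adjusted p-values were 0.643, 0.643, 0.788 and 0.639. Such separation was found upwards for 17.1% and downwards for 17.2% of genes. The fibroblast list was lower too, at 27144 and 14957 CPM in HFHF-old against 34752 and 41494 in young rats. Per 1000 UMIs of that list Mmp2 was higher in both HFHF-old rats (27.7 and 27.6) than in the young rats (25.8 and 18.4). Mmp14 overlapped, at 8.95 and 19.3 against 10.2 and 9.30. The part of the list was not tested. The values rest on HFHF-old replicate 1 for the inhibitors. Without it the log2 fold changes of Timp1 and Timp3 were 0.23 and 0.31, and that of Mmp2 was -1.13. Without HFHF-old replicate 2 those of Timp1, Timp3 and Mmp2 were 1.5, 1.16 and -0.07.

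In endothelial cells the 5 genes tested had a median log2 fold change of -0.54 with age and of 1.15 with the diet, against -0.01 and 0.01 over all genes. The medians had the same signs in macrophages (-1.23 and 1.10), S100a9 myeloid cells (-0.41 and 0.97) and epithelial cells (-0.40 and 1.08). Over all genes these classes stood at -0.02 and -0.07, 0.01 and 0.01, and 0.003 and -0.04. In mural cells the medians of the genes tested were -0.50 and -0.54. The 2 HFHF-old rats stood far apart in endothelial cells, with Timp2 at 544 and 79.9 and Mmp14 at 74.6 and 18.7 CPM. The fibroblast list in endothelial cells was split in the same way, at 7425 and 660 CPM in HFHF-old and 2710 and 1221 in old rats, and its part was not tested. In macrophages Mmp2 was at 34.4 and 9.23 in young and 6.01 and 4.66 in old rats (log2 fold change -1.99, SE 0.63, edgeR adjusted p = 0.739), a value of -0.77 without young replicate 1 and -2.63 without young replicate 2. In S100a9 myeloid cells it was at 18.0 and 12.1 against 5.15 and 3.21 (log2 fold change -1.65, SE 0.43, edgeR adjusted p = 0.810). With the diet Mmp2 was at 13.6 and 6.21 CPM in HFHF-old S100a9 myeloid cells (log2 fold change over old rats 1.22, SE 0.44, edgeR adjusted p = 0.482), a value of 0.37 without HFHF-old replicate 1. In epithelial cells it was at 30.8 and 14.7 in HFHF-old against 12.5 and 3.00 in old rats (log2 fold change 1.81, SE 0.61, edgeR adjusted p = 0.512), a value of 1.15 without old replicate 2 and 2.96 without old replicate 1. The epithelial class was made up differently, with acinar cells 2517 of 2890 and 63 of 83 in HFHF-old but 885 of 1684 and 437 of 3412 in old rats, and its fibroblast list stood at 990 and 358 against 526 and 159 CPM. Their part was not tested. Within acinar cells Mmp2 was at 43.0 and 20.5 against 21.0 and 9.70 and within endocrine cells at 8.16 and 0 against 8.11 and 2.38, and both overlapped. Of the acinar cells of HFHF-old replicate 1, 73.4% were in cluster 12, which had a median of 823.5 UMIs per cell. Over all rats Mmp2 stood at 93.2 CPM in cluster 12 and at 7.61 in acinar cluster 16. HFHF-old macrophages held 14.2 and 27.6, the latter from 2 UMIs. The fibroblast list was lower in the old macrophages as well, at 338 and 182 CPM against 933 and 371, while in S100a9 myeloid cells it overlapped, at 138 and 49.8 against 382 and 89.4. Timp3 in S100a9 myeloid cells was at 4.28 and 4.66 in HFHF-old against 0.982 and 0.603 in old rats (log2 fold change 2.20, SE 0.79, edgeR adjusted p = 0.482), where the 4.66 stands for 3 UMIs in 92 cells.

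In mural cells, HFHF-old replicate 1 was the single rat of its group, and its 13 cells held 0 Mmp2 UMIs of 76401, which allows up to 39.3 CPM. The old group, at 24.7, lay below that limit, so no fold is given. Young mural cells, at 48.1 over both rats, were 1.23-fold that limit, which covers counting error only. Without young replicate 1 they also lay below it. Over all genes the median log2 fold change of the mural comparisons with HFHF-old rats was -0.29 against old and -0.31 against young rats.

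**Figure D4:**
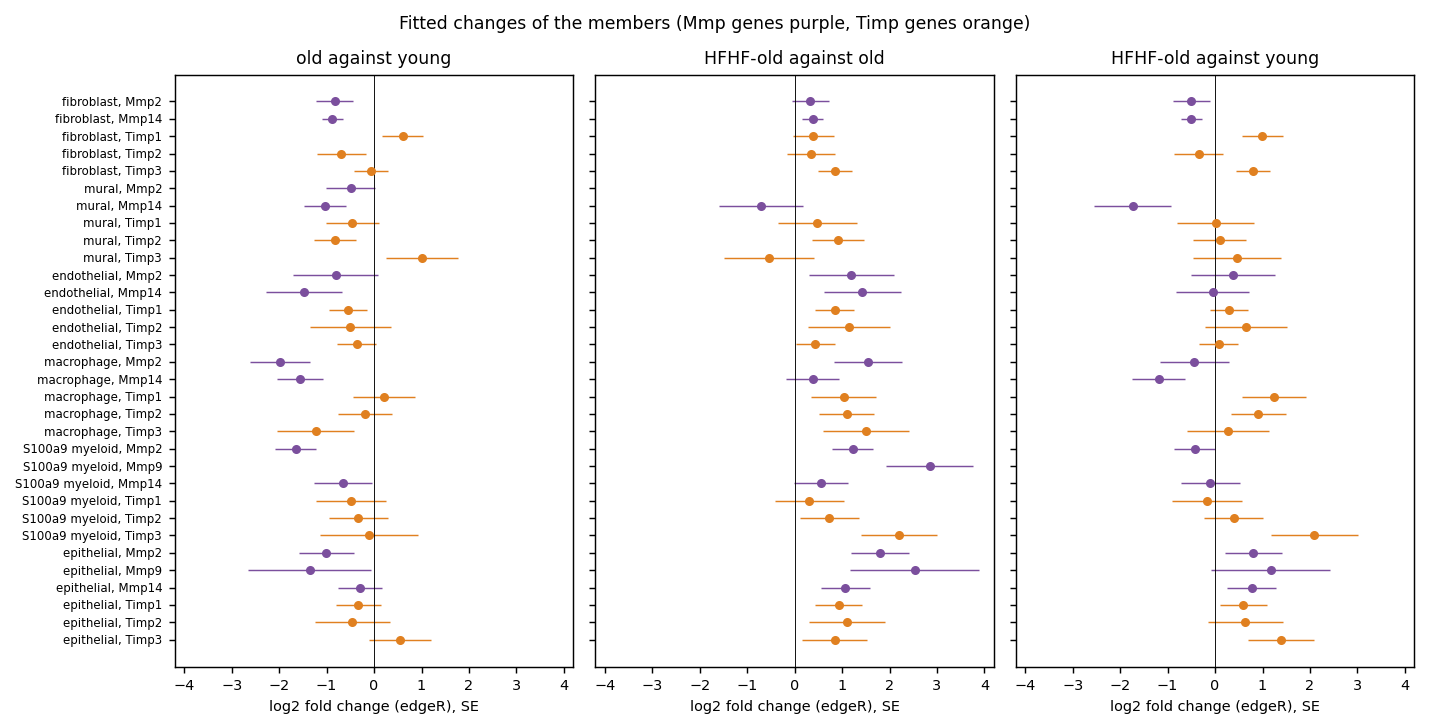
Log2 fold changes of the genes in 6 classes (horizontal axis, edgeR estimate with bars of 1 SE) for the 3 comparisons, with Mmp genes in purple and Timp genes in orange. Estimates against a group at 0 are left out, and none of the 96 tests passed.

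The balance of enzyme and inhibitor transcripts in fibroblasts was compared as a ratio of UMIs within a rat, which needs no scaling between rats. Mmp2 UMIs per Timp3 UMI were 2.62 and 2.67 in young, 1.43 and 1.71 in old and 1.13 and 0.976 in HFHF-old rats, and no pair of groups overlapped. Mmp2 UMIs per Timp1 UMI were 11.3 and 8.89, 5.49 and 2.64, and 3.4 and 3.93, with the young rats apart and the others overlapping. For each of these separations the two-sided exact permutation test gave p = 0.333, the smallest it can give with 2 rats against 2 (adjusted p = 0.857 over 18 tests of 6 ratios). Mmp2 and Mmp14 per Timp2 UMI overlapped in every comparison, at 0.497 to 0.935 and 0.183 to 0.474. Mmp14 per Timp1 or Timp3 UMI was not among the 6 ratios. The share of other gene pairs that separate in this way is not given, so the values describe the named pairs and not a general balance.

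Fibroblast clusters held these ratios at different levels, and the clusters were unequally filled. Young fibroblasts fell mostly in cluster 3 (73.1 and 54.9%) and those of HFHF-old replicate 1 in cluster 15. Within cluster 3, Mmp2 UMIs per Timp3 UMI were 2.48, 2.82, 1.14, 1.22, 2.19 and 0.701, with both young rats above the other 4. Within cluster 8 they were 4.16, 2.27, 1.87, 2.78, 4.03 and 2.88, where both HFHF-old rats lay above both old rats, the reverse of the order in all fibroblasts, and the young rats overlapped both groups. Within cluster 14 they were 2.79, 2.94, 1.24, 2.48, 0.827 and 1.39, with both young rats again the highest. Old and HFHF-old rats overlapped in clusters 3 and 14. In cluster 15 the ratio was 0.752 in young replicate 1 (32 cells), below 1.77 in old replicate 1 (36 cells) and 0.925 in HFHF-old replicate 1 (1927 cells). The separation of the young rats per Timp1 UMI was not found in cluster 8, at 11.5 and 5.75 in young against up to 5.98 in other rats, nor in cluster 14, at 8.94 and 3.53 against up to 5.72.

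**Figure D5:**
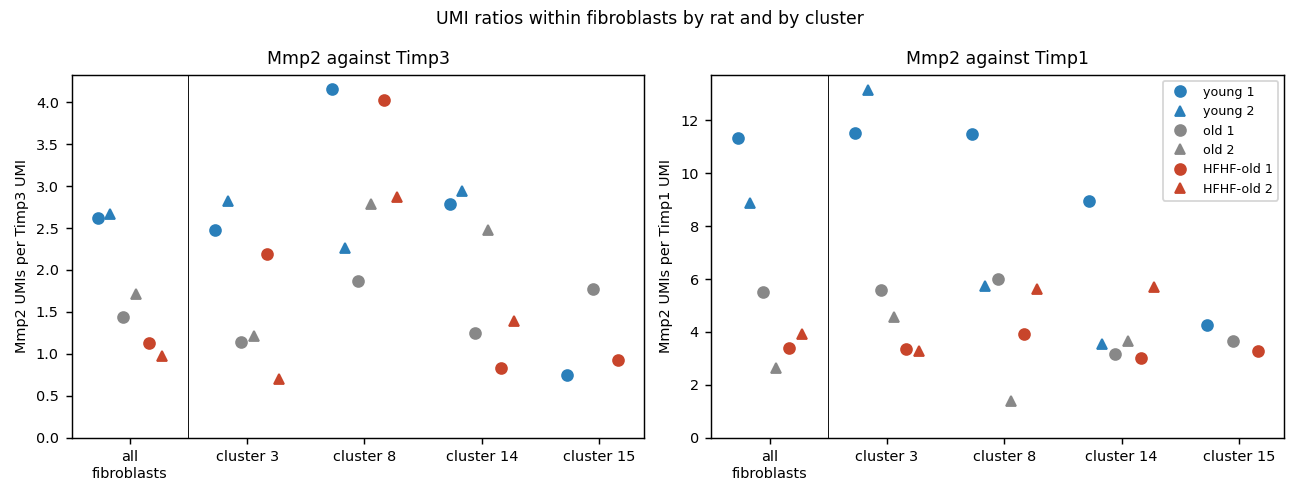
Mmp2 UMIs per Timp3 UMI (left) and per Timp1 UMI (right) in all fibroblasts and in each fibroblast cluster of a rat with at least 10 cells; 1 point per rat. In all fibroblasts the young rats stood at 2.62 and 2.67 per Timp3 UMI and at 11.3 and 8.89 per Timp1 UMI, above the other 4 rats, whereas in cluster 8 the ratio per Timp3 UMI was higher in both HFHF-old rats than in either old rat, with the young rats overlapping each group.

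Whether a change between groups differed between fibroblasts and another class was tested with limma on differences within rats. Of 75 tests, 0 had an adjusted p under 0.05 and 9 an unadjusted p under 0.05. Over all genes 0 had an adjusted p under 0.05 too, and their share with an unadjusted p under 0.05 is not given. The lowest adjusted p, 0.0592, was that of Mmp2 between fibroblasts and mural cells for HFHF-old against old, which rests on the 13 mural cells described above. The count past an adjusted p of 0.05 moved without HFHF-old replicate 1, without old replicate 1 and without old replicate 2. Each of these settings leaves 1 rat in a group, and the share over all genes there is not given.

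Other genes of matrix turnover give the surroundings of the 7 genes. The list holds 47 genes, 46 of them in the files, and comprises other metalloproteinases (15), inhibitors (6), ADAM and ADAMTS proteases (12), plasminogen activators, cathepsins and furin (8) and receptors or inducers (6). In the main fits 0 of them were called in any class and comparison. With unadjusted p-values under 0.05, 4 of 37 tested in fibroblasts passed for old against young, 7 for HFHF-old against old and 8 for HFHF-old against young, beside 6.62%, 7.34% and 7.94% of all genes. DESeq2 called 1, 5 and 8 of 193 tests over the 6 classes in these comparisons, beside 0.308%, 0.379% and 0.768% of the tests of all genes.

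Of the 14 other metalloproteinases in the files, only 2 reached 50 CPM as the median of one of the 6 tested classes, and no other class was searched. The named examples were chosen after their values were seen. Mmp23 stood at a median of 99.7 in fibroblasts and Mmp12, macrophage elastase, at 85.2 in S100a9 myeloid cells, while Mmp15, a membrane-type enzyme, stood at 43.3 in endothelial cells. The collagenase genes Mmp8 and Mmp13 stood at medians of at most 4.80 and 0.0152 in any of the 6 tested classes. Among inhibitors, Timp4 was highest in mural cells, at a median of 125, and Reck, a membrane-anchored inhibitor, in fibroblasts at 116. Of the proteases, Adamts5, an aggrecanase, and Adamts2, a procollagen peptidase, stood at 608 and 331 in fibroblasts.

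Each member had close neighbours in its pattern over 84 sums of a class in a rat. Over log2(CPM + 1), among 9343 genes, the gene most like Mmp2 was Itga11, a collagen-binding integrin subunit (Pearson r = 0.928), followed by Mfap5 and Dpt. The gene most like Mmp14 was Fkbp9 (r = 0.947), then Lamb1 and Antxr1. C1r was most like Timp1 (r = 0.881), Pmp22 most like Timp2 (r = 0.908) and Pls3 most like Timp3 (r = 0.962). Among the members the highest correlation was that of Mmp14 with Timp3 (r = 0.853) and the lowest that of Timp2 with Timp3 (r = 0.473). The sums share libraries, depth and cell classes, and these correlations describe them. Mmp3 and Mmp9 did not reach the 50 CPM that the comparison required.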

How the data were processed

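Single-cell 3' libraries of pancreatic cells from 6 rats were analysed, 2 in each of 3 groups taken from the labels. The authors deposited raw UMI counts per gene and cell, made with Cell Ranger (5.0.0 in the file headers) on Rnor 6.0 per the labels. Cells with at least 200 genes and at most 25% mitochondrial UMIs were kept, without the top 1% by gene number over all libraries as likely doublets. UMIs were scaled to 10000 per cell, and 2000 variable genes without the 7 members and the matrix genes gave 12 components, 15 neighbours and leiden clusters at resolution 1 (leidenalg 0.10.2). Clusters were named from marker lists. The number of components and the naming thresholds were set after clusters were seen, and the members and lists were chosen with earlier results of these data known.

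UMIs were summed per rat and class with at least 10 cells and tested with edgeR 4.0.16 (TMM, filter on low counts, quasi-likelihood, Benjamini-Hochberg over all genes of a class) in R 4.3.3. The SE is the absolute log2 fold change over the square root of F. DESeq2 1.42.0 was an alternative, and limma 3.58.1 tested differences between classes within rats. Exact two-sided permutation tests of 2 against 2 rats cannot go below p = 0.333. Floors of 3 UMIs cover counting error only. The fits were tested on simulated data with 200 changed genes, and 57.5% of 4-fold changes were called among 13794 fibroblast genes for HFHF-old against old, with 20 false calls. The 7 members in every class were named, pathway genes when called, and the 3 most alike genes of a member. The alternatives were another tool, filter, normalization, clustering, minimum of cells, doublet removal, a replicate block and leaving out each rat.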

Additional observations from a re-analysis of the deposited data

Results flagged for a closer look

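Cells in no named class were outside the comparisons, and some held these genes above the limit that a count of 0 allows. Mmp14 stood at 399 CPM in unnamed cluster 25 (264 UMIs in 877 cells, against a limit of 4.53), at 57.8 in cluster 28 (41 UMIs in 765 cells, limit 4.23) and at 113 in cluster 37 (18 UMIs in 187 cells, limit 18.8). These 3 clusters are those of old replicate 2 alone, and the Mmp14 level of cluster 25 was above that of the fibroblasts of this rat. Mmp2 stood at 382 CPM in unnamed cluster 34 (2276 UMIs in 347 cells, limit 0.503), of which 254 cells came from HFHF-old replicate 1. This cluster was left unnamed because the macrophage and the fibroblast list both passed, and its median was 17150 UMIs per cell. Groups of 2 rats are too small for a test of outliers.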

How the results depend on the processing

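Log2 fold changes were recomputed for the 5 genes in fibroblasts and for those with an unadjusted p under 0.05 elsewhere, 22 in all. A further 3 with a group at 0 (Mmp2 in mural cells in both comparisons with HFHF-old rats, and Mmp9 in S100a9 myeloid cells between HFHF-old and young rats) were left out, since their fitted values depend on the prior count. Of 392 alternative values 381 kept their direction and side of the threshold, 1 moved past it (Mmp14 in fibroblasts with DESeq2, -0.88) and 10 changed direction, all in fibroblasts. Without HFHF-old replicate 1, the diet values of Mmp2, Timp1 and Timp2 turned to -0.30, -0.38 and -0.24. Without old replicate 2 that of Timp2 turned to -0.14, and without both rats those of Mmp2 and Timp2 to -0.45 and -0.74. With age, Timp3 turned to 0.07 without young replicate 1, 0.20 without old replicate 2 and 0.21 without both rats. Timp2 between HFHF-old and young rats turned to 0.077 without HFHF-old replicate 2. When 1 rat was left out these values ranged from -0.30 to 0.77 for Mmp2, -0.38 to 0.90 for Timp1 and -0.24 to 1.13 for Timp2 with the diet, -0.39 to 0.20 for Timp3 with age and -0.93 to 0.077 for Timp2 between HFHF-old and young rats. The count of members called, 0 of 32 tests in each comparison, was 1 for old against young with DESeq2. For HFHF-old against old it was 1 with the top 1% by gene number taken within each library, and 0 to 1 when 1 rat was left out. For HFHF-old against young it was 1 with DESeq2, at resolution 2, with the top 1% within each library and without both HFHF-old replicate 1 and old replicate 2, and 0 to 1 when 1 rat was left out. The calls without old replicate 1 or old replicate 2 were Mmp2 in mural cells, where the HFHF-old group is 13 cells with 0 UMIs. Those at resolution 2 and with the top 1% within each library were Timp1 in macrophages, where the HFHF-old group was replicate 1 alone, a library that stands apart. The call without both rats was Mmp9 in fibroblasts (log2 fold change 3.98 over young rats), where the HFHF-old group was replicate 2 alone. Mmp9 was not tested in fibroblasts in the main setting. The count of class differences past the threshold, 0, also moved when some rats were left out, as given above.

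Over all genes and the 6 classes the share of tests called moved as well. For old against young it was 0.0138% in the main setting, 0.308% with DESeq2, 0.3% with at least 30 cells, 1.31% without both rats and 0 to 0.942% without 1 rat. For HFHF-old against old it was 0.00276%, then 0.379% with DESeq2, 0.493% with the top 1% within each library, 0.823% without both rats and 0 to 0.918% without 1 rat. For HFHF-old against young it was 0.00691%, then 0.768% with DESeq2, 0.141% with the legacy method, 0.369% at resolution 2, 0.895% with the top 1% within each library, 0.309% with at least 30 cells, 0.278% with 10 components, 1.84% without both rats and 0.00271 to 0.778% without 1 rat. In macrophages with the top 1% within each library, 350 of 12174 genes were called for HFHF-old against old and 632 against young, and 263 of 12264 against young at resolution 2.

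The count of pathway genes called, 0 in each comparison, moved as follows. For old against young it was 1 with DESeq2, 1 with at least 30 cells, 5 without both rats named above and 0 to 3 without 1 rat. For HFHF-old against old it was 5 with DESeq2, 2 with the top 1% within each library, 5 without both rats and 0 to 4 without 1 rat. For HFHF-old against young it was 8 with DESeq2, 1 with the legacy edgeR method, 3 at resolution 2, 4 with the top 1% within each library, 2 with at least 30 cells, 3 with 10 components, 9 without both rats and 0 to 3 without 1 rat. The cause of these shifts was not tested. The alternatives with 10 components and without both rats were chosen after seeing the data. Where a rat left out leaves 1 in its group, that rat is assumed to vary like those of the other groups.

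With the replicate number as a block, 0 members were called in each comparison. Deviations of rats with the same number correlated at -0.17 to 0.16 over genes, and the labels do not tie the numbers to a shared day or litter. With 2 rats per group and as few as 13 mural cells or 25 macrophages in a rat, small differences were not detectable at this depth.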

Other observations

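Mesothelial cells numbered 117 in the 4 rats with at least 10 of them and were not among the classes whose tests are reported. They held Timp1 and Timp2, but not Timp3 (19.5 to 93.2 CPM), at levels near or above those of fibroblasts. Timp1 stood at 365, 189, 488 and 2485 CPM in young replicate 1, old replicates 1 and 2 and HFHF-old replicate 1, and Timp2 at 453 to 1416. Mmp2 stood at 0 to 13.3 CPM there, or 0 to 1.36 UMIs per 1000 UMIs of the fibroblast list, against 18.4 to 27.7 in fibroblasts.

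Ctsb, a lysosomal protease gene, was highest in macrophages at a median of 3761 CPM. Cst3, a cystatin gene, was highest in endothelial cells at 5169, both among the 6 tested classes only. These genes were picked after their values were seen.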
